A study of Mus musculus with 8 samples.

Results

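The sperm RNA fragments described here come from 2 dense clusters of tRNA genes in the mouse genome, on chromosomes 1 and 13, and from 1 tRNA-like stretch inside the gene Nlrp4a on chromosome 7. The deposited tables list small RNAs under names of the piR-mmu type, each with its genomic position and its level in every library. A name was taken as a member when any of its listed positions lay within a 50 kb window of chromosome 1, a 2400 kb window of chromosome 13 or a 0.15 kb window of chromosome 7 (mm10). Each name was counted once. Membership was set by position alone, but the members were chosen with earlier results of these data known. In all, 186 of 20210 names were members, 55 of 13450 in the table of the toxin experiment and 180 of 17375 in the table of the shRNA experiment, and 49 were in both.

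Small RNA was sequenced from sperm of Balb/c mice at post-natal month 8, with 2 libraries, A and B, in each of 4 groups. One table sets controls against exposure to MC-LR (microcystin-LR, a cyclic peptide toxin of cyanobacteria that inhibits protein phosphatases), and the other sets a negative-control shRNA against an shRNA to Hsp90aa1, the gene of the inducible HSP90 alpha chaperone. The series' design text speaks of 2 doses of the toxin, but the sample labels give no dose, duration or route. Whether MC-LR A and MC-LR B had the same dose is therefore unknown, and they are treated as replicates because they share a label. The labels also do not say which cells received the shRNAs. The small RNA names carry no measure of Hsp90aa1 mRNA, so the knockdown itself could not be checked here.

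A transfer RNA is transcribed as a precursor, its 5′ leader and 3′ trailer are cut off, and the letters CCA are then added to its 3′ end without a template. Cleavage in or beside the anticodon loop gives tRNA 5′-halves and 3′-halves, and further cleavage gives shorter fragments. Mature mouse sperm is known for a small RNA pool rich in tRNA 5′-halves, above all those of glycine and glutamate tRNAs. Because tRNA genes exist in many near-identical copies, a fragment can usually be assigned to an amino acid and anticodon but seldom to 1 gene.

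The reference sequences below show where members lie on 4 of these tRNAs, with the letters of the member in capitals and the rest of the tRNA gene in lower case. They are GRCm38 letters of the listed position, 5′ to 3′ on the strand of the fragment, taken from RefSeq promoter windows (Ala-AGC, Val-CAC) and GENCODE transcripts (Ile-TAT, Ser-TGA). The tables do not give the letters of a name, so a read could differ from them. The first is a 32-nt 5′-half of an alanine tRNA, piR-mmu-67688619 at chr13:21222586-21222617 (+), on the gene n-TAagc16. The 3 letters that follow its last base are agc, the anticodon.
Ala-AGC 5′-half: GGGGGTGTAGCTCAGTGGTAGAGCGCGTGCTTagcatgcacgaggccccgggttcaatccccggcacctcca
The next is a 20-nt internal fragment of the intron-bearing isoleucine tRNA gene n-TItat14, piR-mmu-49248841 at chr13:21896956-21896975 (-), and the line after it shows piR-mmu-48861718 at chr13:21896930-21896950 (-), which runs 8 nt past the end of the same gene.
Ile-TAT internal: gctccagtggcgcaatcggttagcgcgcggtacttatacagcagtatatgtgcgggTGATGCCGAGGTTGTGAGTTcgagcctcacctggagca
Ile-TAT 3′ end: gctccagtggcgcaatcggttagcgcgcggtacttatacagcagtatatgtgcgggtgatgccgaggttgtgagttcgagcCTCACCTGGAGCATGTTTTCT
That last member has the same coordinates and letters as the mature microRNA mmu-miR-1983 of the RefSeq table, printed here with its seed, bases 2 to 8, in capitals.
mmu-miR-1983: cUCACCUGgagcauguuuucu
A 3′-end fragment of a valine tRNA is piR-mmu-49290549 at chr13:23446139-23446160 (-), which ends 3 nt past the gene n-TVcac9.
Val-CAC 3′ end: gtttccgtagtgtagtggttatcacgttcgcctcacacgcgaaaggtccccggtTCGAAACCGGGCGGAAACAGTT
Its last 3 genomic letters are GTT, where a mature tRNA carries the added CCA. The serine member piR-mmu-48753159 at chr13:21924954-21924973 (-), on n-TStga2, shows how names can share a sequence.
Ser-TGA internal: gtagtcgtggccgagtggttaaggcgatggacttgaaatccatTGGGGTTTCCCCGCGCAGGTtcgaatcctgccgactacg
The same 20 letters stand at chr13:23518189-23518208 (+), on n-TStga1, where they carry another name, piR-mmu-48768751, which is also listed on n-TSaga1 and is counted under Ser-AGA. The 2 names have identical levels in all 4 libraries of the shRNA table.

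RefSeq annotates 16 tRNA genes in the chromosome 1 window, 104 in the chromosome 13 window and 0 in the chromosome 7 window. Most members lay on them, namely 50 of 55 in the MC-LR table and 170 of 180 in the shRNA table. Histone genes share the chromosome 13 cluster, but 0 members lay on any of the 29 histone genes in the windows. A 5′-half is here a fragment of 28 to 35 nt that starts within 2 nt of the annotated 5′ end of a tRNA gene, and a shorter fragment is any member under 28 nt on a tRNA gene. By these definitions the MC-LR table held 17 5′-halves, 32 shorter fragments and 1 other long fragment on tRNA genes, and the shRNA table held 42, 108 and 20. The fragments came from 9 kinds of tRNA, by amino acid and anticodon, in the MC-LR table and from 23 in the shRNA table. The members off the tRNA genes were names found on chromosome 7 but not chromosome 1 (3 and 6), names in an intron of 4930557F10Rik (1 and 4) and, in the MC-LR table, 1 name directly after n-TGgcc6. As many as 45 of the 55 and 136 of the 180 members were listed at more than 1 position. For 6 and 32 members these positions lay on tRNAs of more than 1 anticodon, and each is counted here under the tRNA at its position in the windows.

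Levels are in RPM, reads scaled by the authors to the library's total. The values were whole multiples of 1 read, and the library totals recovered from them ran from 4960467 to 14634370 reads, so that 1 read was worth 0.0683 to 0.202 RPM. The median member had 29 reads or more in the libraries of the MC-LR table and 4 to 78 reads in those of the shRNA table. All names of a table, summed, moved with the groups. They held 38.1% and 35.3% of reads in the controls but 12.5% and 11.7% after MC-LR. In the shRNA table they held 27.8% and 32.5% in the negative controls against 4.98% and 3.18% in the Hsp90aa1 libraries. The members therefore have to be read against a table in which most names were lower, and within-library shares, which no scaling between libraries touches, are given beside the levels.

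In the MC-LR table, glycine and glutamate tRNA fragments made up nearly all of the tRNA-cluster signal. Names on tRNA genes summed to 2624 RPM in control A, 3311 RPM in control B, 1248 RPM in MC-LR A and 1450 RPM in MC-LR B. Gly-GCC, on the chromosome 1 cluster, held 64.8% and 71.8% of that sum in the controls and 70.5% and 70.7% after MC-LR. Glu-TTC, in the windows on the chromosome 13 gene n-TEttc5, held 28.1%, 21.95%, 24.7% and 23.6% in the same order. The other 7 tRNAs together held 4.87% to 7.02%. The shares of Gly-GCC and Glu-TTC overlapped between the groups, and that of the minor tRNAs did not (7.02% and 6.27% against 4.87% and 5.67%).

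Of the 55 members, 42 fell after MC-LR and 0 rose (limma on log2(RPM + 1), Benjamini-Hochberg adjusted p under 0.05 over all 13271 names tested). Over all names, 73.1% were called lower and 2.37% higher, so the members' count is near the background. The median log2 fold change of the members was -1.24, beside -1.17 over all names, and all 55 had a negative fold change. The 2 groups did not overlap for 50 of the 55. The share of all names without overlap was not computed, so this count cannot be read as a trait of the members. Whether libraries A and B come from separate mice is not stated in the labels, and the p-values cover the spread among libraries only, which may be technical. Among fits with 1 library left out the count was lowest without MC-LR A. The share of all names called in those fits is not given, so the shift cannot be read as a trait of the members. When libraries were scaled to one another within the list (edgeR on recovered reads with TMM factors), the median over all names moved to 0.06. That of the members moved to 0.26, and 0 members were called in either direction, with 7 of 55 at an unadjusted p under 0.05. Over all 13271 names, 296 were called lower and 316 higher, and 1996 had an unadjusted p under 0.05. DESeq2 called 0 members, beside 394 names lower and 316 higher. The falls named below are thus on the authors' scaling: with TMM factors 11 of the 15 names printed for this comparison had a positive fold change, none of them called.

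The top member of the MC-LR table was the 29-nt Gly-GCC 5′-half piR-mmu-10845317, at chr1:171066631-171066659. This name is also listed on n-TGgcc13 and n-TGgcc14, in the chromosome 7 window and at chr6:148408584-148408612, where no tRNA gene is annotated. It stood at 779 and 1318 RPM in the controls and at 534 and 645 RPM after MC-LR. The controls were both above the MC-LR libraries, but control A lay closer to them than to control B. The log2 fold change of -0.79 ± 0.36 (SE, n = 2 a group) missed the threshold (limma adjusted p = 0.0651). The 27-nt fragment from the same start, piR-mmu-11066693, stood at 299 and 352 RPM against 151 and 171 RPM, and fell by 1.01 ± 0.33 on the log2 scale (limma adjusted p = 0.0200). The abundant glycine 5′-half and its 2-nt shorter form lay on different sides of the threshold, but the difference between their changes was not tested. Both calls rest on single libraries: without control A the 5′-half passed (limma adjusted p = 0.000348), and without MC-LR A or MC-LR B the 27-nt name did not (0.171 and 0.104).

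Glu-TTC fragments of 28, 27 and 25 nt passed the threshold. All 3 are listed on n-TEttc5 and equally on the genes n-TEttc6 and n-TEttc7 outside the windows. The 27- and 25-nt names are also on n-TEttc8, where the first 28 nt are listed under another name, piR-mmu-11289039. The gene of origin of the 3 can therefore not be told apart. The 28-nt Glu-TTC 5′-half piR-mmu-11661775 (chr13:23463535-23463562) stood at 301 and 324 RPM in the controls and at 117 and 128 RPM after MC-LR, a log2 fold change of -1.34 ± 0.33 (limma adjusted p = 0.00560). From the same start, the 27-nt piR-mmu-13814731 stood at 127 and 131 RPM against 48.6 and 60.7 RPM, and fell by 1.24 ± 0.34 (adjusted p = 0.00948). The 25-nt piR-mmu-1266453 had 39.6 and 32.1 RPM in the controls and 2.36 and 5.79 RPM after MC-LR. With a log2 fold change of -2.94 ± 0.41 (limma adjusted p = 0.000340) it fell most of any member of this table. Without MC-LR A the 28-nt name (adjusted p = 0.0704 by limma) and the 27-nt name (0.122) no longer passed, and without MC-LR B the 27-nt name did not (0.0509), whereas the 25-nt name passed with any 1 library left out.

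The most abundant 5′-halves of Leu-AAG, Val-AAC and Val-CAC were mostly set apart by control B. The 33-nt Leu-AAG 5′-half piR-mmu-53596112 had 13.7 and 43.3 RPM in the controls against 11.6 and 12.5 RPM, the 31-nt Val-AAC 5′-half piR-mmu-48767437 had 12.5 and 27.0 RPM against 8.75 and 12.8 RPM, and the 31-nt Val-CAC 5′-half piR-mmu-3450179 had 12.1 and 25.4 RPM against 7.74 and 12.3 RPM. The Leu-AAG name is also listed on a Leu-TAG gene and the Val-AAC name on a Val-CAC gene, so the valine names need not be separate tRNAs. None of these 3 passed (limma adjusted p = 0.0830, 0.114 and 0.101), and for both valine names the groups overlapped. Without control A all 3 passed, at adjusted p of 7.13e-06 (limma), 0.00131 and 0.00114. Of all 7 Val-AAC 5′-halves, 4 were called lower (limma), beside 73.1% over all names. A glutamate 5′-half with the other anticodon, the 30-nt Glu-CTC name piR-mmu-1019818, fell from 6.08 and 6.45 RPM to 1.51 and 0.762 RPM (limma adjusted p = 0.00201). Among shorter fragments of other tRNAs, the 23-nt Ala-AGC 5′ fragment piR-mmu-44704129 fell from 17.4 and 13.7 RPM to 5.55 and 8.38 RPM (limma adjusted p = 0.0228), and the 20-nt internal Leu-AAG fragment piR-mmu-49144986, at 1.503 and 1.814 RPM against 0.505 and 1.07 RPM, did not pass (0.103). The alanine call was lost without MC-LR A (limma adjusted p = 0.224) or MC-LR B (0.0603).

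The 20-nt Ile-TAT fragment piR-mmu-49248841, shown above, is listed at a single genomic position. It stood at 59.7 and 30.6 RPM in the controls (873 and 152 reads) and at 4.88 and 6.86 RPM after MC-LR (29 and 45 reads), a log2 fold change of -2.69 ± 0.40 (limma adjusted p = 0.000480). In the shRNA table it stood at 9.58 and 23.0 RPM in the negative controls, and at 0.299 and 0.0923 RPM (4 reads and 1 read) with the Hsp90aa1 shRNA (log2 fold change -3.74, limma adjusted p = 0.000570). The groups did not overlap in either table, as for 50 of 55 members of the MC-LR table and all 180 of the shRNA table. Its neighbour at the mature miR-1983 position, piR-mmu-48861718, has values in the shRNA table only, and was low throughout at 0.927 and 1.20 RPM against 0.225 and 0.0923 RPM (9 and 16 reads against 3 and 1).

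**Figure D1:**
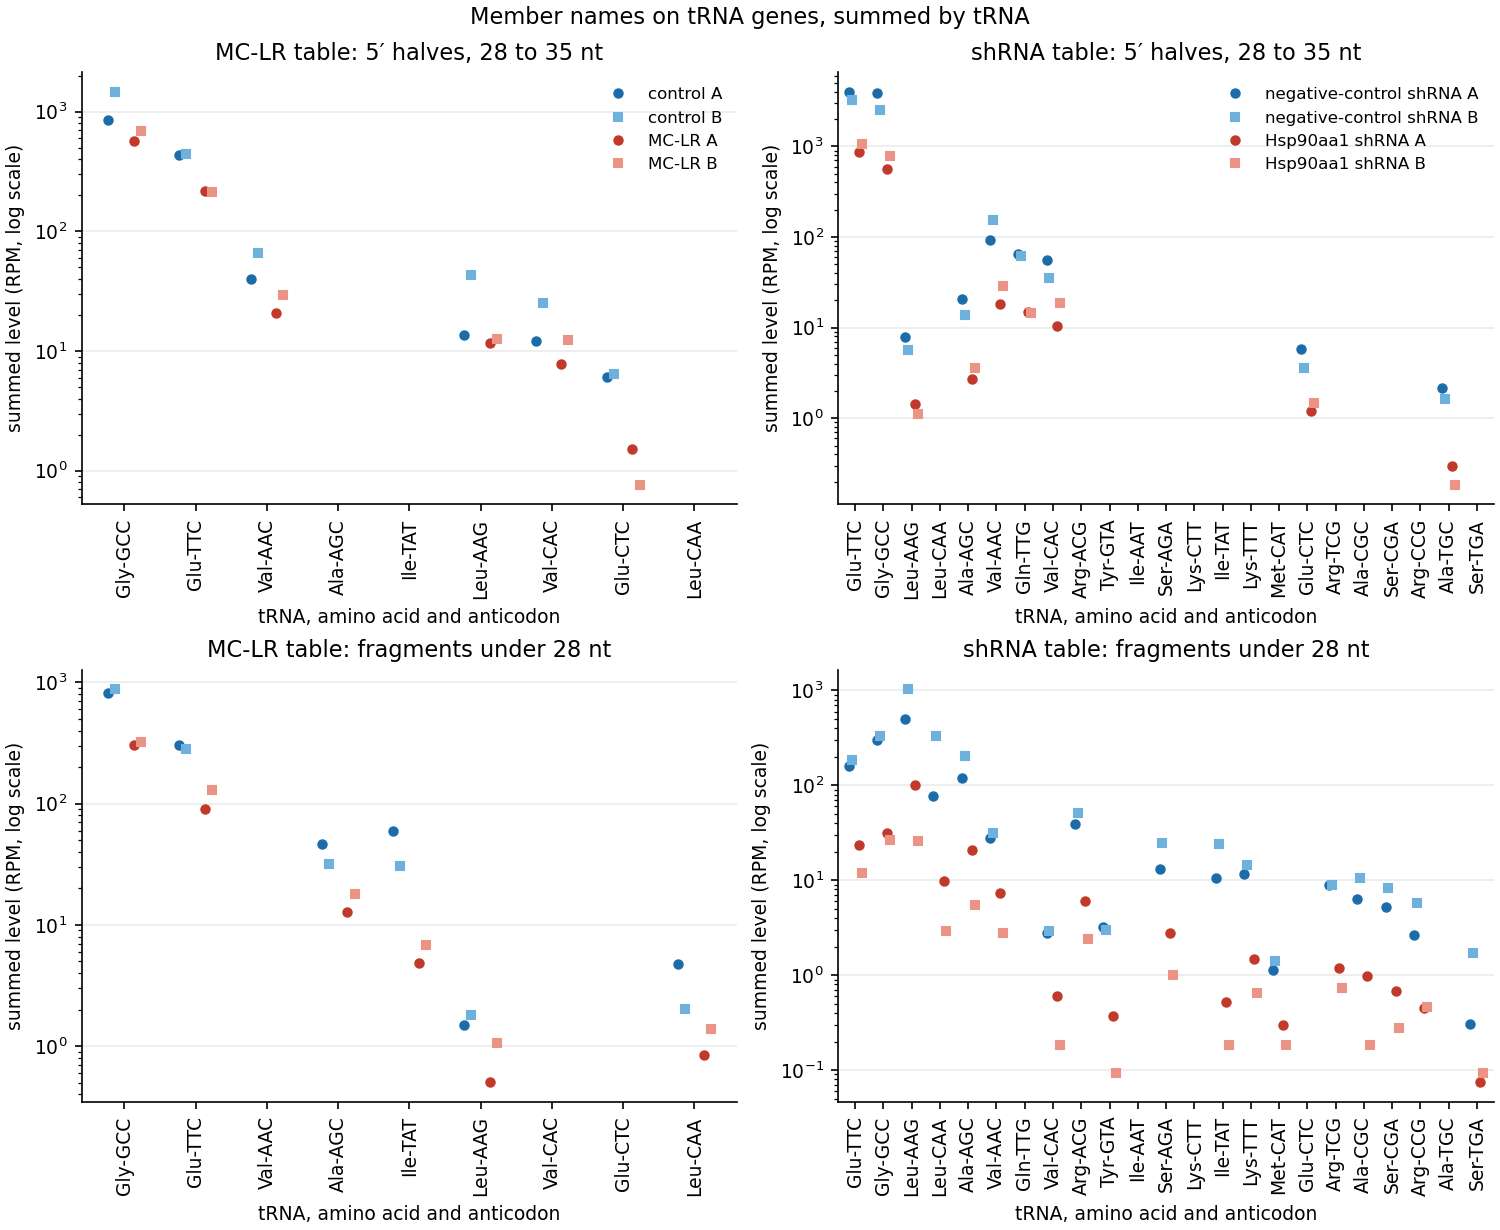
Summed level in RPM (log axis) of the member names on tRNA genes for each tRNA, named by amino acid and anticodon, with 5′-halves in the upper panels and fragments under 28 nt in the lower ones. Each point is 1 library (blue for control groups, red for MC-LR or Hsp90aa1 shRNA, circles for A, squares for B), a tRNA without a point has no name of that class, and within the upper panels Gly-GCC and Glu-TTC lie above the other tRNAs in both tables.

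Shorter fragments were lower by a larger factor than 5′-halves after MC-LR. Of the 17 5′-halves 9 fell, with a median log2 fold change of -1.09. Of the 32 shorter fragments 29 fell, with a median of -1.49 (limma, each beside the 73.1% over all names). Among the 9, piR-mmu-11289039 was tested with its values on n-TEttc8, outside the windows. The fit gave it the same log2 fold change as piR-mmu-11661775 (-1.34), so the same fall stands under both names. At its window position it had 133 and 120 RPM in the controls against 100 and 86.0 RPM after MC-LR. 5′-halves summed to 1363 and 2050 RPM in the controls and to 826 and 962 RPM after MC-LR, 1.91-fold lower on average. Shorter fragments summed to 1237 and 1228 RPM against 415 and 480 RPM, 2.75-fold lower. Within a library, 5′-halves made up 52.0% and 61.9% of the tRNA-gene members in the controls (56.9% ± 7.0, SD, n = 2) and 66.1% and 66.4% after MC-LR (66.3% ± 0.14, SD, n = 2). The groups did not overlap, and the exact two-sided permutation test gives p = 0.333, the smallest that 2 libraries against 2 allow. The same order held within Gly-GCC (50.4% and 61.6% against 64.4% and 67.6%) and Glu-TTC (58.7% and 61.1% against 70.6% and 62.5%), but the groups overlapped for the other tRNAs (39.0% and 68.1% against 68.7% and 67.0%). The result depends on the shortest length counted as a 5′-half: with 5′-halves of 30 to 35 nt and shorter fragments under 30 nt, the difference of 9.31 percentage points became -0.0095. Without control A it was 4.33, and without control B it was 14.3. In this table the most abundant 5′-half is 29 nt long, and names of 30 nt and over on tRNA genes are few and low. The 30-nt Gly-GCC 5′-half piR-mmu-10849969 and the 29- to 32-nt Glu-TTC 5′-halves, abundant in the shRNA table, have no values here. The sums, shares and length profile of the MC-LR table therefore do not include them.

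By length, the tRNA-gene members of the MC-LR table peaked at 29 nt in every library, with 823, 1399, 553 and 676 RPM in control A, control B, MC-LR A and MC-LR B. At 24 nt the 4 libraries had 136, 114, 23.1 and 23.3 RPM, and at 27 nt they had 484, 558, 220 and 257 RPM. The gap between the groups was thus wider at 24 nt than at the peak. The mean length, weighted by RPM, was 27.2 and 27.7 nt in the controls and 27.9 nt in both MC-LR libraries.

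**Figure D2:**
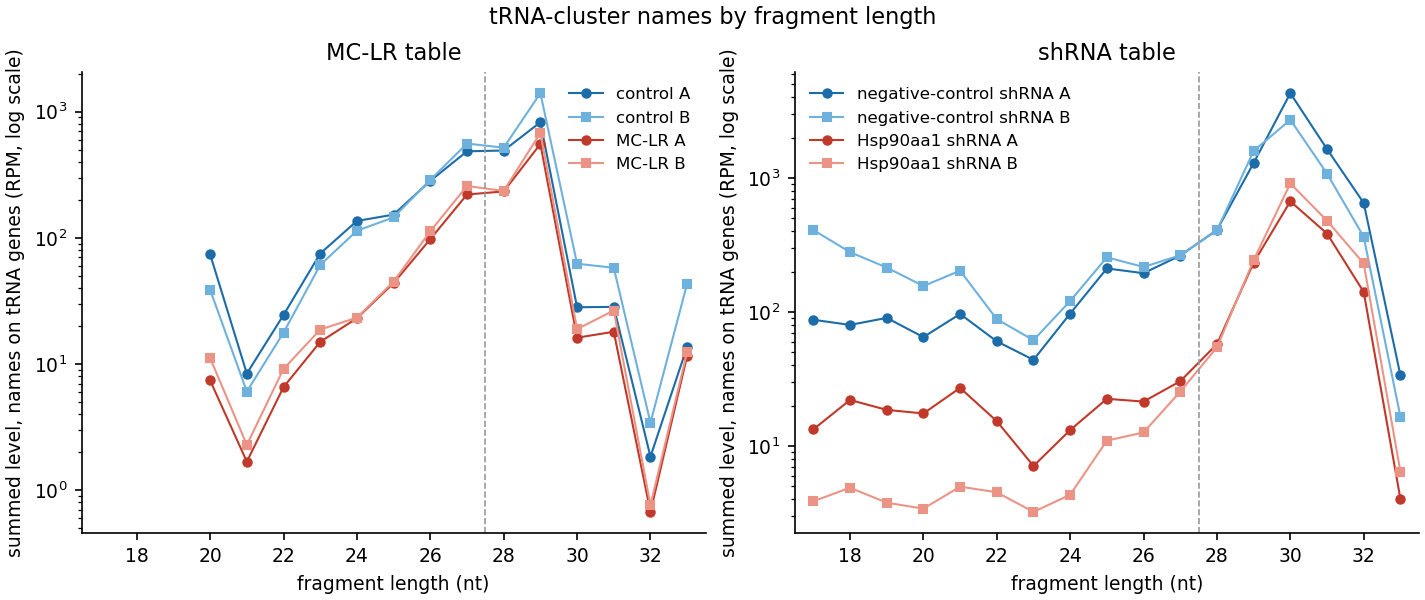
Summed level in RPM (log axis) of the member names on tRNA genes against fragment length in nt, 1 line for each library. The dashed line marks the boundary between shorter fragments and 5′-halves, the MC-LR table peaks at 29 nt and the shRNA table at 30 nt, and the Hsp90aa1 shRNA B line runs lowest at 17 to 27 nt.

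Hsp90aa1 shRNA and negative-control shRNA libraries were then compared over the larger set of 180 members, which reached 23 kinds of tRNA. Names on tRNA genes summed to 9603 and 8438 RPM in the negative-control libraries A and B against 1698 and 2006 RPM in the Hsp90aa1 libraries A and B, 4.87-fold lower on average. Glu-TTC and Gly-GCC again led, with Glu-TTC at 43.5% and 41.4% of the sum in the negative controls and 52.7% and 53.6% with the Hsp90aa1 shRNA. Gly-GCC held 44.3% and 33.7% against 34.8% and 40.2%, so that its share overlapped between the groups whereas that of Glu-TTC did not. The remaining tRNAs held 12.2% and 25.0% against 12.5% and 6.18%.

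A low-level filter (a mean of at least 1 RPM in a group) left 175 of the 180 members to test. Of these, 173 fell and 0 rose (limma, adjusted over 16859 names), where 99.5% of all names were called lower and 0.219% higher, so that a count of this kind says little about the members. The members' median log2 fold change was -1.84, beside -1.66 over all names. With TMM factors the median over all names became -0.03 and that of the members -0.37. edgeR called 0 members, with 28 of 175 at an unadjusted p under 0.05. Over all 16859 names it called 14 lower and 37 higher, with 1906 at an unadjusted p under 0.05. DESeq2 called 1 member lower, piR-mmu-7898656, beside 133 names lower and 34 higher. Of the 23 names printed for this comparison, 10 had a positive fold change with TMM factors, none of them called. With TMM factors the median of the 40 5′-halves tested was 0.60, and that of the 107 shorter fragments tested was -0.77.

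The top member was the 30-nt Gly-GCC 5′-half piR-mmu-10849969 at chr1:171066631-171066660, 1 nt longer than the top 5′-half of the MC-LR table. It is also listed on n-TGgcc13 and n-TGgcc14 and at chr6:148408584-148408613, where no tRNA gene is annotated. This name, like the 29- to 32-nt Glu-TTC 5′-halves, has values in the shRNA table only. It stood at 3037 and 1763 RPM in the negative controls and at 433 and 639 RPM with the Hsp90aa1 shRNA (limma adjusted p = 0.0194). The 29-nt piR-mmu-10845317 had 618 and 470 RPM against 86.1 and 100 RPM, a log2 fold change of -2.52 ± 0.65 (adjusted p = 0.00430 by limma). The 27-nt piR-mmu-11066693 had 130 and 133 RPM against 14.8 and 16.2 RPM, a log2 fold change of -3.01 ± 0.57 (limma adjusted p = 0.00107). These 3 glycine names share their first base, and the fitted fall was larger the shorter the name, a comparison that was not tested. Leaving out negative-control shRNA A or B, the 30-nt name no longer passed (0.312 and 0.112 as adjusted p of limma), nor did the 29-nt name when A was left out (0.119), and the 27-nt call held with any 1 library left out.

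The 31-nt Glu-TTC 5′-half piR-mmu-3770383 (chr13:23463535-23463565) was the most abundant member that missed the threshold, at 1598 and 1044 RPM against 377 and 472 RPM (log2 fold change -1.61 ± 0.72, limma adjusted p = 0.0506). The 32-nt piR-mmu-51809453 from the same start, at 506 and 276 RPM against 116 and 184 RPM, also missed it (-1.35 ± 0.69, limma adjusted p = 0.0789). These were the only 2 tested members that did not pass. Their groups did not overlap, as for all 180 members, and the share of all names without overlap was not computed. Without Hsp90aa1 shRNA B both passed (limma adjusted p = 0.0278 and 0.0293), and without Hsp90aa1 shRNA A the 31-nt name did (0.0334). A shorter Glu-TTC fragment of 27 nt, piR-mmu-20473502, which starts 1 nt in, fell from 46.1 and 42.8 RPM to 2.32 and 1.11 RPM, a log2 fold change of -4.10 ± 0.48 (limma adjusted p = 0.000570).

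Among the 5′-halves of other tRNAs, the 29-nt Gln-TTG name piR-mmu-10910691 was the steadiest, at 31.4 and 35.3 RPM against 7.93 and 7.66 RPM (limma adjusted p = 0.00437). The 32-nt Val-CAC 5′-half piR-mmu-52368842 had 49.0 and 29.9 RPM against 8.83 and 17.3 RPM (0.0253). The 32-nt Ala-AGC 5′-half shown above, piR-mmu-67688619, had 18.3 and 12.3 RPM against 2.40 and 3.42 RPM (0.00206 by limma). The Leu-AAG 5′-half piR-mmu-53596112 had 7.83 and 5.68 RPM against 1.42 and 1.11 RPM, and passed in this table (limma adjusted p = 0.00179). All 4 fell without overlap between the groups, which held for all 180 members and is no trait of these 4. With negative-control shRNA A left out the glutamine call was lost (adjusted p = 0.0593 by limma), and the Val-CAC call without negative-control shRNA A (0.287), negative-control shRNA B (0.0688) or Hsp90aa1 shRNA A (0.0827). The 29-nt Val-AAC 5′-half piR-mmu-11471686 was spread more widely, with negative-control shRNA B far above the other libraries. It had 9.78 and 101 RPM against 2.25 and 1.48 RPM (limma adjusted p = 0.00341).

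Shorter fragments of leucine and alanine tRNAs, which had few names in the MC-LR table, were abundant in the negative-control shRNA libraries. The 22 shorter names counted under Leu-AAG summed to 497 and 1033 RPM against 99.99 and 25.8 RPM. Of all 23 names counted there, 16 are also listed on Leu-TAG, and these held 465 and 947 RPM against 96.1 and 25.7 RPM. The top name, also on both, the 25-nt 5′ fragment piR-mmu-22901240, had 142 and 170 RPM against 15.7 and 6.65 RPM, a log2 fold change of -3.79 ± 0.62 (limma adjusted p = 0.000702). The 17-nt internal Leu-CAA fragment piR-mmu-8117417 (chr13:21200273-21200289, a single position on n-TLcaa1) had 63.4 and 294 RPM against 8.16 and 1.94 RPM. With a log2 fold change of -4.73 ± 0.82 (limma adjusted p = 0.000855) it fell most of any member here, although its 2 control libraries differed more than 4-fold. The 19-nt Ala-AGC 5′ fragment piR-mmu-49351838 had 62.5 and 124 RPM against 8.91 and 1.29 RPM (adjusted p = 0.000880 by limma). In all 3, negative-control shRNA B was the highest library and Hsp90aa1 shRNA B the lowest.

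**Figure D3:**
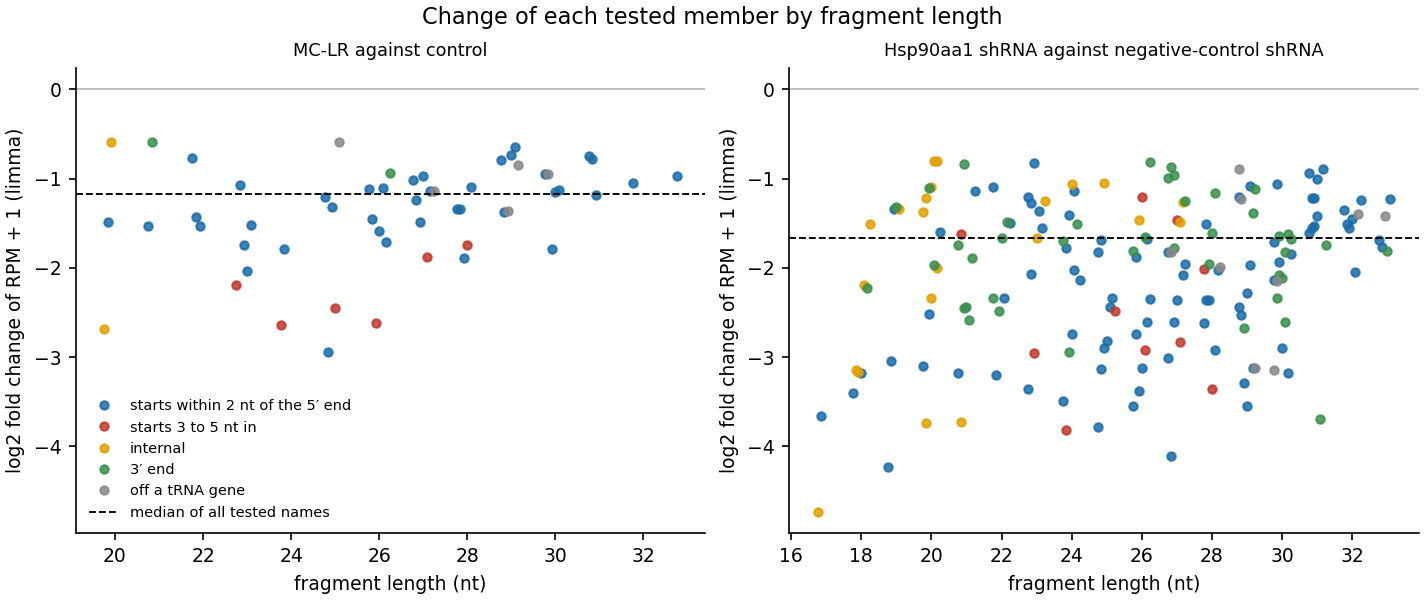
Log2 fold change of RPM + 1 (limma) of each tested member against its length in nt, coloured by where on the tRNA gene it lies, with small sideways offsets so that points do not hide each other. The dashed line is the median of all tested names (-1.17 and -1.66), the red points, names that start 3 to 5 nt in, include many of the lower values at 23 to 28 nt, and no point is above 0 on the authors' scaling.

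Shorter fragments were again lower by a larger factor than 5′-halves. Of the 40 5′-halves tested 38 fell, with a median log2 fold change of -1.70, and all 107 shorter fragments tested fell, with a median of -1.97 (limma, each beside the 99.5% over all names). 5′-halves summed to 8178 and 6062 RPM in the negative controls and to 1478 and 1910 RPM with the Hsp90aa1 shRNA, 4.20-fold lower. Shorter fragments summed to 1291 and 2271 RPM against 209 and 82.2 RPM, 12.2-fold lower. 5′-halves made up 85.2% and 71.8% of the tRNA-gene members with the negative-control shRNA (78.5% ± 9.4, SD, n = 2) and 87.0% and 95.2% with the Hsp90aa1 shRNA (91.1% ± 5.8, SD, n = 2). The groups did not overlap, but negative-control A and Hsp90aa1 shRNA A lay within 2 percentage points of each other (exact permutation p = 0.333). Without negative-control shRNA B the difference of 12.6 percentage points became 5.97, and without Hsp90aa1 shRNA B it became 8.54. Within Gly-GCC the shares were 92.5% and 87.8% against 94.5% and 96.6%, and within Glu-TTC they were 95.7% and 94.3% against 97.2% and 98.8%. In this table the order held with the boundary at 30 nt, where the difference was 17.0 percentage points.

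The length profile of the shRNA table peaked at 30 nt, at 4285 and 2717 RPM in the negative controls and 669 and 910 RPM with the Hsp90aa1 shRNA. At 17 nt the libraries stood at 87.5, 409, 13.3 and 3.88 RPM in the order negative-control A, negative-control B, Hsp90aa1 shRNA A and Hsp90aa1 shRNA B. Libraries of 1 group differed more than 3-fold there, whereas at 28 nt they had 409 and 406 RPM and 57.6 and 54.5 RPM. Members under 22 nt made up 4.37% and 14.97% of the tRNA-gene members against 5.81% and 1.04%, shares that overlapped between the groups.

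**Figure D4:**
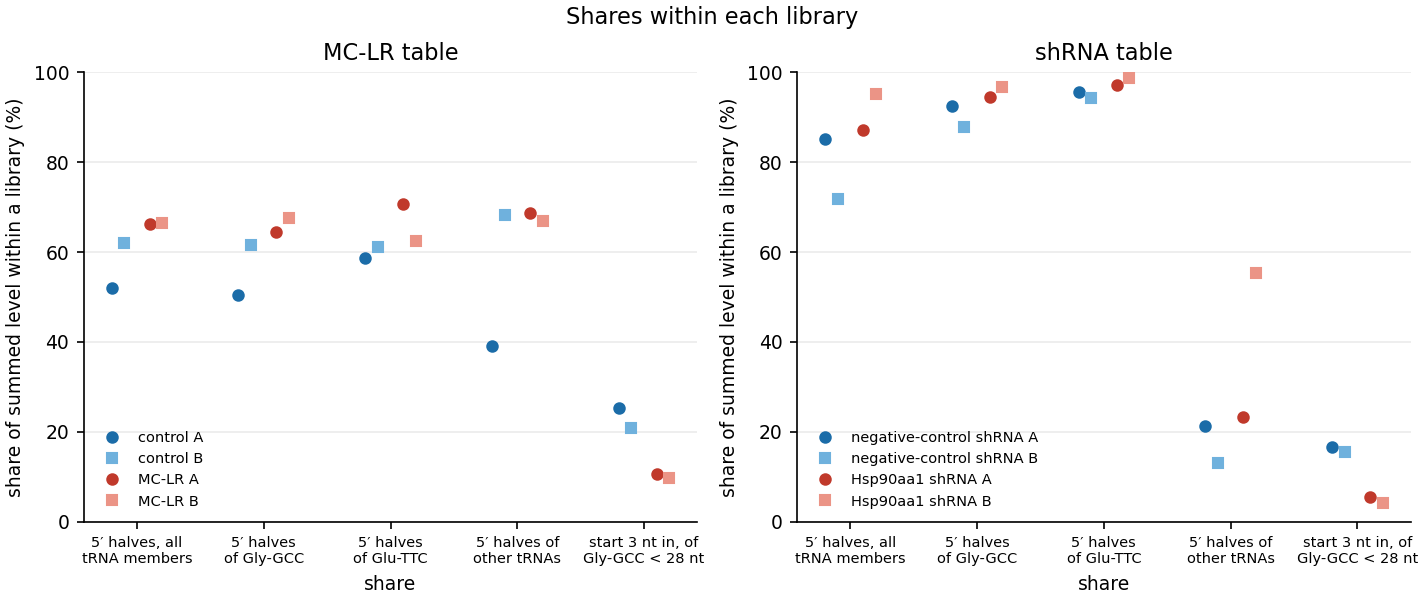
Shares in percent within each library, 1 point for a library (blue for control groups, red for MC-LR or Hsp90aa1 shRNA, circles for A, squares for B). The first 4 positions give 5′-halves as a share of all tRNA-gene members, of Gly-GCC, of Glu-TTC and of the other tRNAs, and the last gives names starting 3 nt in as a share of Gly-GCC fragments under 28 nt, which in the MC-LR table is 25.3% and 20.9% in the controls and 10.5% and 9.69% after MC-LR.

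All 25 Gly-GCC names on tRNA genes in the MC-LR table, and 28 of 31 in the shRNA table, start 0 to 3 nt from the 5′ end of the tRNA, and the share of those starting 3 nt in did not overlap between the groups in either table. This was noticed after the values were seen. In the MC-LR table the 6 names that start 3 nt in summed to 230 and 217 RPM in the controls and to 39.2 and 39.5 RPM after MC-LR, 5.68-fold lower. The 7 names that start at the first base summed to 1301 and 1897 RPM against 779 and 902 RPM, 1.90-fold lower. To set names of like length against each other, Gly-GCC fragments under 28 nt were taken alone. Those starting 0, 1, 2 and 3 nt in were 2.19-, 3.11-, 3.31- and 6.16-fold lower after MC-LR. With the Hsp90aa1 shRNA they were 9.89-, 14.9-, 10.9- and 36.2-fold lower, so starts 1 and 2 nt in also fell by more than start 0. Those starting 3 nt in then made up 25.3% and 20.9% of the fragments in the controls and 10.5% and 9.69% after MC-LR. In the shRNA table, whose libraries are all different ones, they made up 16.6% and 15.6% in the negative controls and 5.40% and 4.15% with the Hsp90aa1 shRNA. The latter shares rest on sums of only 1.72 and 1.11 RPM. The shRNA values include 3′-end names of n-TGgcc4 in the denominator, and over names starting 0 to 3 nt in alone the shares were 17.7% and 17.1% against 6.48% and 4.56%. Neither pair of groups overlapped, and the exact permutation p of each was 0.333. The 24-nt piR-mmu-7898656 (chr1:171066634-171066657) leads these names: it stood at 96.9 and 80.4 RPM against 14.5 and 12.3 RPM in the MC-LR table and at 21.2 and 21.7 RPM against 0.748 and 0.462 RPM in the shRNA table.

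Fragments from the 3′ end of tRNAs were a feature of the shRNA table, with 43 names from 14 kinds of tRNA beside 2 names in the MC-LR table. Of the 43, 25 ended exactly 3 nt past the annotated end of the tRNA gene and 10 ended 2 nt past it, while 3 ended at the gene's last base and 3 ended 1 nt past it. The remaining 2 ended 8 and 11 nt past it, in the trailer. The Val-CAC member printed above is one of the 25, and at 2.78 and 2.91 RPM against 0.599 and 0.185 RPM it is also one of the low ones. Arg-ACG gave the most 3′-end names, 11, and the 24-nt piR-mmu-58652016 on n-TRacg1 had 13.2 and 15.5 RPM against 1.87 and 0.369 RPM (limma adjusted p = 0.000674). The 22-nt Ser-AGA name piR-mmu-48813616 on n-TSaga5 had 10.1 and 15.5 RPM against 2.40 and 0.739 RPM (limma adjusted p = 0.00117). All 42 of the 3′-end names that could be tested fell, where 99.5% of all names fell. The sum of the 43 names was 223 and 250 RPM against 35.3 and 21.8 RPM, 8.28-fold lower. For names at the 5′ end the sum was 4.65-fold lower, and for the 22 internal names, at 137 and 459 RPM against 17.3 and 5.17 RPM, it was 26.5-fold lower. That last value moved with single libraries and was 12.2-fold without negative-control shRNA B, 40.9-fold without negative-control shRNA A, 57.6-fold without Hsp90aa1 shRNA A and 17.2-fold without Hsp90aa1 shRNA B. Without its highest name, piR-mmu-8117417, it was 19.3-fold.

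**Figure D5:**
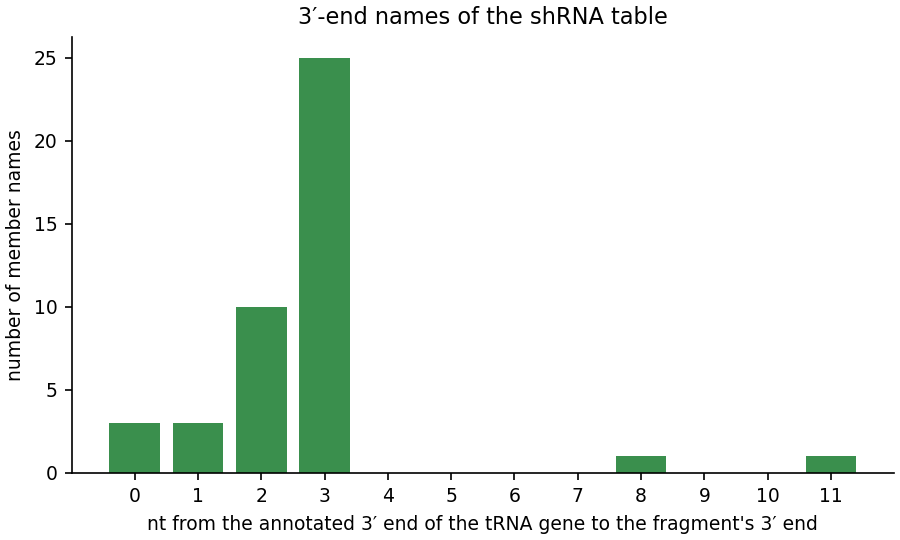
Number of 3′-end member names of the shRNA table (bars, from 0) by the distance in nt from the annotated 3′ end of the tRNA gene to the end of the fragment. The tallest bar, 25 names, is at 3 nt.

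The chromosome 7 window lies in an intron of Nlrp4a, a gene of the NLR family, on the strand opposite to that gene. It held 21 members in the MC-LR table and 25 in the shRNA table, of which 18 and 19 were also listed at the chromosome 1 Gly-GCC genes. The names that are listed on chromosome 7 but not on chromosome 1 numbered 3 and 6. Each of them had a partner of the same length and start on the chromosome 1 gene, and the pairs' levels nearly coincided in every library. The 30-nt piR-mmu-12633674 (chr7:26460859-26460888) had 2946, 1701, 416 and 614 RPM in the 4 shRNA libraries, 96.0% to 97.0% of its partner piR-mmu-10849969. The 27-nt piR-mmu-24686756 (chr7:26460861-26460887) had exactly its partner's level in all 4 libraries of both tables, at 10.3, 12.3, 4.88 and 4.27 RPM in the MC-LR table and 4.84, 3.44, 0.524 and 0.369 RPM in the shRNA table. The 29-nt piR-mmu-29238317 had 32.5, 55.8, 12.8 and 19.8 RPM in the MC-LR table. Over all such pairs the chromosome 7 name had 93.2% to 101% of its partner's level. Names found on chromosome 7 only were therefore left out of the sums above, so that the signal of these pairs was not counted again. Other members with matching levels, such as piR-mmu-48753159 and piR-mmu-48768751, each stayed in the sums.

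The tRNA names elsewhere in the genome gave a yardstick outside the windows. After MC-LR, 43 of 71 such names fell and 0 rose (limma), where 73.1% of all names fell, with a median log2 fold change of -0.99. With the Hsp90aa1 shRNA, 334 of 336 tested fell, where 99.5% of all names fell, with a median of -1.64.

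Names on microRNA genes were used to check the labelled tissue. The germ-cell microRNA genes Mir34b, Mir34c, Mir449a and Mir449c had 0 of 4 with a name in the MC-LR table, and 3 of 4 in the shRNA table, where their sum was 1327 and 2641 RPM against 634 and 163 RPM. Epithelial microRNA genes (Mir200a, Mir200b, Mir200c, Mir141, Mir429) had a name for 5 of 5 in both tables, with 6388 and 4690 RPM in the controls against 2408 and 2490 RPM after MC-LR, and 2591 and 3801 RPM against 399 and 110 RPM in the shRNA table. Muscle genes, with names shared between gene copies counted once, ran from 273 to 704 RPM and from 230 to 7431 RPM, red cell genes from 0.505 to 3.02 RPM and from 43.7 to 405 RPM, and white cell genes from 8.08 to 20.8 RPM and from 13.3 to 204 RPM. The liver gene Mir122 had no name in either table. These levels moved with the groups as the tRNA members did, negative-control shRNA B was again the highest library and Hsp90aa1 shRNA B the lowest in the germ-cell, epithelial, muscle and white cell lists, and their part in the members' values was not tested. In bulk RNA, fewer cells of a type and less RNA in each cannot be told apart.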

How the data were processed

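Small RNA from sperm was sequenced in 8 libraries, 2 in each of 4 groups. The authors deposited 2 tables of RPM values, 1 for each experiment, in which a small RNA name has a row for every listed genomic position. Per the submitters' processing notes the build is mm10, and the tools named are Bowtie2 2.2.3, HISAT2 2.1.0 and HTSeq 0.6.0; their parameters, and how reads with several positions were counted, are not given in the sources consulted. All values in both tables were whole multiples of 1 read, within 0.01 of a read (100%), so reads were recovered from the deposited RPM. Library totals of 4960467 to 14634370 reads set the precision.

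For tests, each name took its position with the highest mean. Printed levels and sums are those at the position inside the windows. Each table was fitted alone with limma 3.58.1 (trend, robust) on log2(RPM + 1), keeping names that averaged 1 RPM or more in either group, with Benjamini-Hochberg adjustment over all names and a threshold of 0.05. Fold changes are on the log2(RPM + 1) scale, which understates the change of low names. edgeR 4.0.16 and DESeq2 1.42.0 on recovered reads were alternatives. The scripts were tested on simulated data. tRNA genes were taken from RefSeq (GRCm38.p6), which gave no strand, so the fragment's own strand was used, and a member had to lie on a gene with at least 0.5 of its length. Library letters were matched to the samples by name.

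The members and the lists were chosen with earlier results of these data known. Named members are, for each tRNA, the most abundant 5′-half and the most abundant shorter fragment, the 4 largest falls, the most abundant members not past the threshold and all names at the chromosome 7 position, of which a selection made after the values were seen is printed. piR-mmu-48861718 and piR-mmu-48768751 fall outside this rule and were also chosen after their values were seen.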

Additional observations from a re-analysis of the deposited data

How the results depend on the processing

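The members lower after MC-LR, 42, numbered 35 to 45 under the other pseudocounts and filters, the block, library totals in edgeR and the value at the member's position, and 17 to 51 with 1 library left out. With TMM or DESeq2 size factors they numbered 0. In the shRNA comparison the 173 became 151 to 163 with 1 library left out, 100 (of 101 tested, fewer names being tested) under a filter of 5 RPM, 0 with TMM and 1 with DESeq2. No setting gave a member called higher. With 1 library left out, the lone library of a group is assumed to vary like the others.

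Same-letter libraries deviated together little in the MC-LR table (correlation 0.065) and oppositely in the shRNA table (-0.61). Whether a letter stands for anything shared between libraries is not stated in the labels and was not tested. A replicate block by letter gave 44 and 164 members lower. Crossed letters in the shRNA table, chosen after seeing the data, gave 175.

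The log2 ratio of shorter-fragment sums after MC-LR, -1.46, became -1.14 with the boundary at 30 nt and -1.17 with only the highest of overlapping names. The difference in 5′-half share, MC-LR minus control, became -0.0095 percentage points with the boundary at 30 nt. With 1 library left out, the MC-LR ratios ran from -1.20 to -0.61 (5′-halves) and -1.57 to -1.36 (shorter), and the difference in share from 4.33 to 14.3 points. The shRNA ratios ran from -2.27 to -1.84 and -4.44 to -3.09, and the difference in share from 5.97 to 19.3 points.

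Scaling libraries to one another within the list turned 11 of 15 printed MC-LR names positive, none past the threshold; the cause was not tested. With TMM and then DESeq2, log2 fold changes were 0.86 and 0.84 (piR-mmu-10845317), 0.68 and 0.67 (piR-mmu-11066693), 0.36 and 0.34 (piR-mmu-11661775), 0.46 and 0.44 (piR-mmu-13814731), 0.45 and 0.44 (piR-mmu-53596112), 0.83 and 0.81 (piR-mmu-48767437), 0.81 and 0.79 (piR-mmu-3450179), 0.55 and 0.53 (piR-mmu-44704129), 0.26 and 0.24 (piR-mmu-29238317), 0.40 and 0.39 (piR-mmu-24686756), and 0.67 and 0.63 (piR-mmu-49144986). With the Hsp90aa1 shRNA, 10 and 11 of 23 turned positive, with 0.77 and 0.86 (piR-mmu-10849969), 0.76 and 0.85 (piR-mmu-12633674), 1.28 and 1.36 (piR-mmu-3770383), 1.56 and 1.65 (piR-mmu-51809453), 0.36 and 0.44 (piR-mmu-10845317), 1.36 and 1.46 (piR-mmu-52368842), 0.51 and 0.60 (piR-mmu-67688619), 0.77 and 0.84 (piR-mmu-10910691), 0.43 and 0.50 (piR-mmu-53596112), and 0.097 and 0.14 (piR-mmu-48861718), and 0.0051 with DESeq2 only (piR-mmu-49290549). No other setting reversed a printed name. At 1 to 4 reads, levels with the Hsp90aa1 shRNA are set mostly by counting error.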
